A study of Mus musculus with 6 samples.

Results

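Glutathione transferases join the thiol of glutathione to reactive, mostly fat-soluble molecules, which makes these molecules easier to export and less damaging. The cytosolic enzymes fall into classes (alpha, mu, pi, theta and omega among them), whereas the microsomal enzymes are membrane proteins of a separate family that also holds leukotriene and prostaglandin synthesis proteins. In the adrenal gland, steroid hydroxylation by mitochondrial and microsomal P450 enzymes produces lipid peroxides and other reactive products that are substrates of glutathione-dependent enzymes. Transcription of many glutathione transferase genes is known to be driven by NRF2, which pairs with small MAF proteins on the antioxidant response element.

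The values described here are those of 10 such genes, 7 cytosolic (Gsta3, Gsta4, Gstm1, Gstm2, Gstp1, Gstt1 and Gsto1) and 3 microsomal (Mgst1, Mgst2 and Mgst3). Members were all probe sets whose platform annotation named exactly 1 gene with 1 of these symbols (17 of the 44935 probe sets analysed; 10 of the 18163 genes named in this way). A probe set is a group of short probes read together as 1 value. All RNA came from whole adrenal glands of male mice aged 3 months of the strain Per2Brdm1/Cry1-/- (C57BL6x129Sv), in which the clock repressors Per2 and Cry1 are mutated and which the labels call clock-deficient. After entrainment to light and dark the mice were released into constant darkness, and the glands were taken at 46 h (3 arrays) or 54 h (3 arrays) after lights off. Both groups carry both mutations and no wild-type gland was analysed here, so the only comparison is between times 8 h apart. The labels do not tie the arrays to animals, so the spread behind each p-value may be technical in part. Arrays are named replicate 1, B or C of a time point, and values per array are given in that order.

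The arrays had medians of 204 to 217 units, and no probe set exceeded 17879; with so few arrays their number limits the precision. The tissue label was checked against marker genes. All 7 adrenal cortex markers and all 5 medulla markers were above the filter on low values (a mean log2 value above the 40th percentile), with summed intensities of 88117 to 97029 units for the cortex over the 6 arrays. In both lists 0 markers were higher at 54 h (median log2 differences -0.05 for cortex and -0.07 for medulla), and 0 passed the test. Of the medulla markers 1, Chga (-0.11), was lower at an unadjusted limma p of 0.05. Likewise 0 of 2 zona glomerulosa markers were higher (median -0.05). Both X-zone markers, Akr1c18 and Pik3c2g, lay under the filter. Liver markers were present and were mostly brighter at 54 h: 11 of 12 were higher at 54 h, 2 of them past the test, and their summed intensity was 12181 to 15941 units at 46 h and 17832 to 18717 at 54 h. Fgb, Apob and Fgg, 3 of these 12, lay under the filter and were not tested. The 1 liver marker that was not higher was Cyp2e1 (-0.28). Of 5 adipose markers 3 were higher at an unadjusted limma p of 0.05 (Cidea 0.67, Lep 0.59 and Ucp1 0.56 on the log2 scale, 0 past the test), while Adipoq (-0.11) and Fabp4 (-0.06) were not, and their sums overlapped, with 22368 to 28295 units at 46 h and 24290 to 29620 at 54 h. Macrophage markers had sums of 14263 to 15945 units at 46 h and lower ones, 13059 to 13221 units at 54 h. Among the kidney markers 1 of 3, Kap, was above the filter, with means of 1292 units at 46 h and 1379 at 54 h. None of the markers of any list was at 0, and the part of liver, adipose or macrophage RNA in the values below was not tested.

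No glutathione transferase probe set passed the test between 46 h and 54 h. Differences are on log2(intensity + 16), 54 h minus 46 h, and were tested in limma over the 26961 probe sets above the filter. Of the 17 member probe sets 15 were tested, and 0 had an adjusted p under 0.05 (limma, Benjamini-Hochberg), where the share over all probe sets was 0.115%. The nearest was Mgst2, whose mean signal at 54 h was 0.499 of that at 46 h and whose limma adjusted p was 0.0539. At an unadjusted p of 0.05 in limma there were 5 of 15, against 10.1% of all probe sets: Mgst2, Gsta3, Gstm2 and Mgst1 on the lower side (5.75% of all were lower) and Gsta4 on the higher side (4.34%). Leaving out 46h replicate 1, 46h replicate C or 54h replicate C brought that count of 5 to 3, and leaving out 54h replicate B brought it to 8. It was also 3, 1 higher and 2 lower, when arrays were centred on their medians, 2 without an intensity trend in the variance and 8 with array weights. The share of all probe sets at that p moved as well. It was 6.69% without 46h replicate 1, 13.4% without 46h replicate C, 5.23% without 54h replicate C and 13.2% without 54h replicate B. With centred arrays it was 8.06%, without the trend 9.19% and with array weights 31.8%.

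The intervals show how much change these arrays leave possible. For 8 of the 15 tested probe sets the 95% confidence interval lay within a 1.2-fold change in either direction (17.1% of all probe sets), and for 13 within a 1.5-fold change (87.2%). The 2 outside the wider bound were Mgst2 and the brighter Gsta3 probe set. The median difference of the 15 was -0.04, against -0.02 over all probe sets, and 10 of the 15 were below 0, against 55.6% of all. In 7 of the 15 the 46 h and 54 h arrays did not overlap, against 15.5% of all probe sets, and 6 of these were lower at 54 h, against 9.05% of all. Of the 6, 2 read the same Gstm1 transcript, so they are not separate observations. The fit ties the variance to intensity, and several members are bright, such as Mgst1 (99.5th percentile of the mean) and Gstm2 (98.7th). Without that trend the SE rose from 0.03 to 0.07 for Mgst1 and from 0.04 to 0.07 for Gstm2. Shares over all probe sets were not matched to the members in brightness, and the part of brightness in these counts was not tested.

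The spread between replicates of these genes was mostly larger at 54 h than at 46 h. The coefficient of variation over 3 arrays was larger at 54 h for 12 of the 15 tested probe sets, against 42.0% of all. It ran from 0.800% (Gstm1) to 19.8% (Mgst3) with a median of 3.04% at 46 h, and from 1.15% (Mgst1) to 21.4% (Mgst2) with a median of 6.33% at 54 h. The medians over all tested probe sets, which were not matched to the members in brightness, were 9.59% and 8.11%. Among the 54 h arrays, replicate 1 gave the highest value for 10 of the 15 probe sets and replicate B for the other 5. The highest array was not counted over all probe sets, so a shift of a whole array cannot be told apart from a trait of these genes. Several of the 15 probe sets read the same gene (Gstm1, Gsta3 or Gsto1), so they are not separate observations. These counts describe 1 set of arrays and were not tested.

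**Figure D1:**
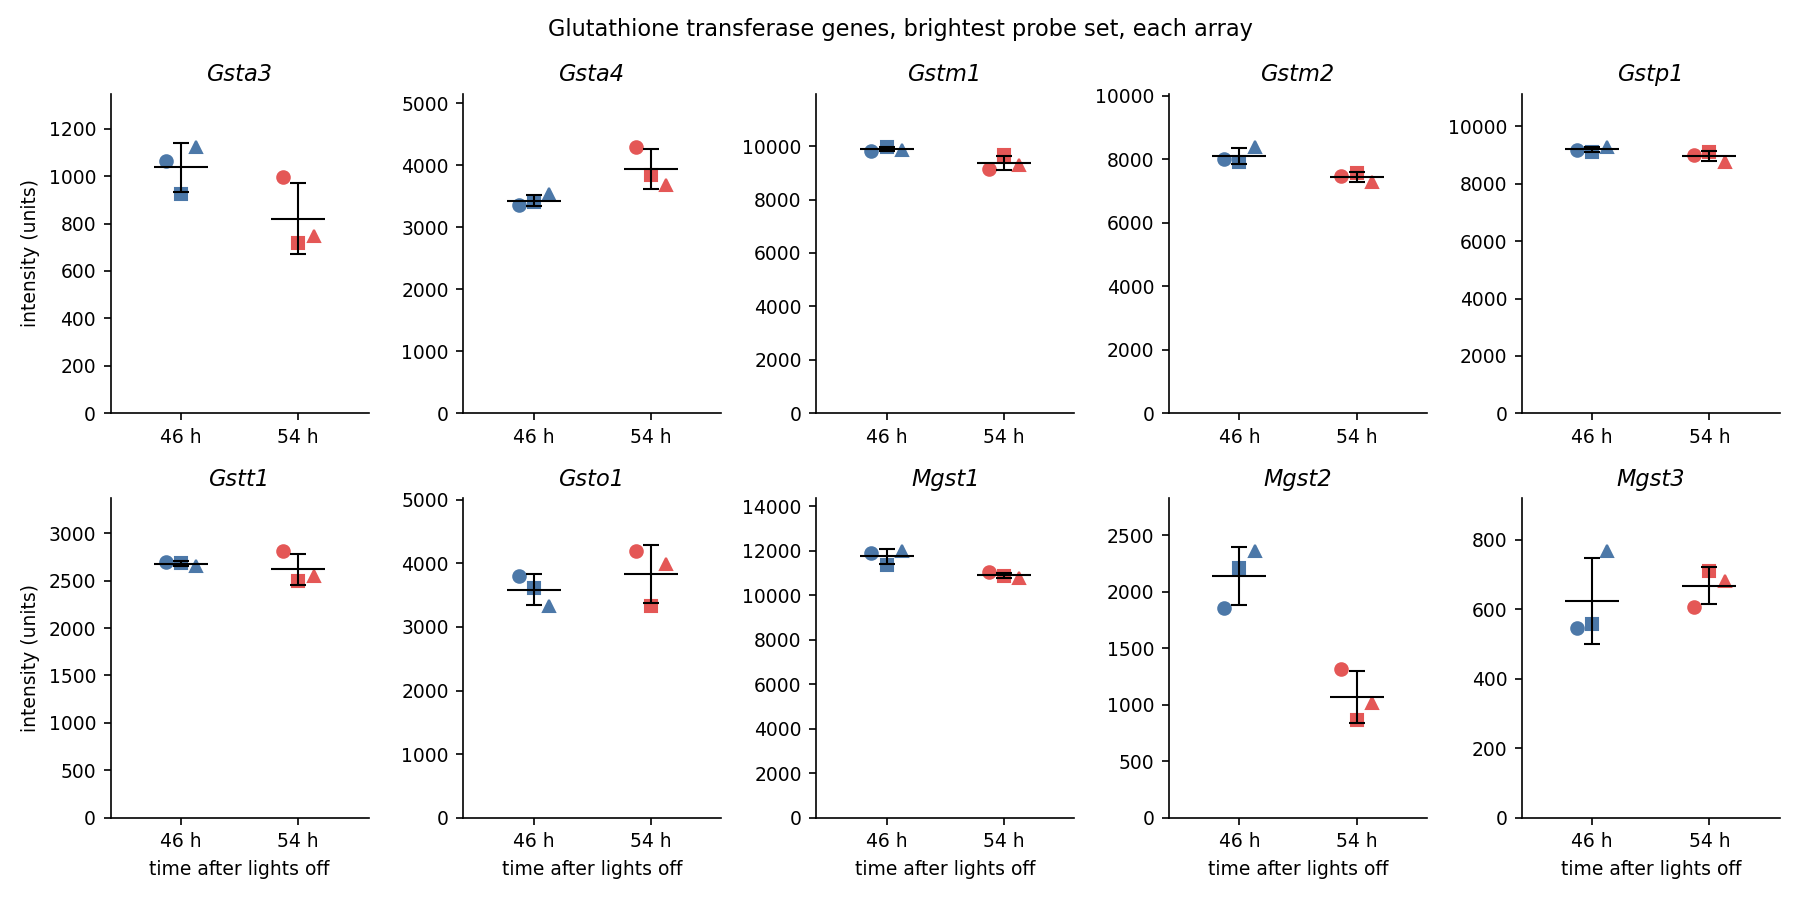
Intensity in units on each array for the brightest probe set of the 10 genes at 46 h (blue) and 54 h (red) after lights off, each panel on its own scale from 0; circles, squares and triangles are replicates 1, B and C, the horizontal bar is the mean and the whiskers the SD (n = 3). Mgst2 is the panel with the widest gap, from 1853 to 2357 units at 46 h against 869 to 1316 at 54 h.

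**Figure D2:**
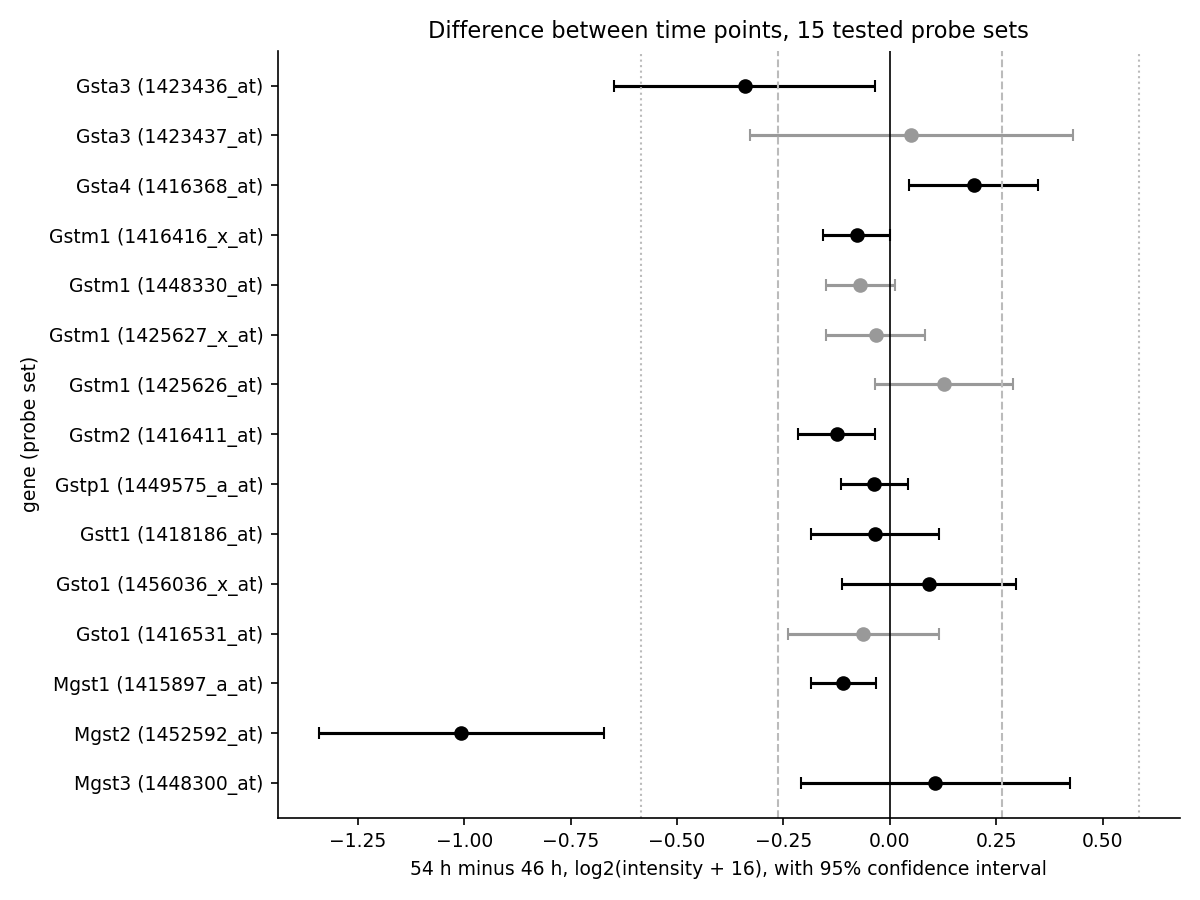
Difference between 54 h and 46 h on log2(intensity + 16) with its limma 95% confidence interval for the 15 tested probe sets (black, brightest of its gene; grey, other); dashed and dotted lines mark changes of 1.2-fold and 1.5-fold. The Mgst2 interval, -1.34 to -0.67, lies wholly beyond the dotted line and 8 intervals lie between the dashed lines.

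Among the microsomal enzymes, Mgst2 stood apart in size. Mgst2 uses glutathione to reduce lipid hydroperoxides and can also form a leukotriene. Its only probe set (1452592_at) read 1853, 2208 and 2357 units at 46 h and 1316, 869 and 1016 units at 54 h. Every 54 h array lay below every 46 h array. The means were 2139 ± 259 and 1067 ± 228 units (SD, n = 3 each), a 2.01-fold lower level at 54 h (log2 difference -1.01 ± 0.15 SE, 95% interval -1.34 to -0.67, limma adjusted p = 0.0539). By p-value it ranked 33 of 26961, just behind the 31 probe sets that passed, and 17 probe sets had a difference at least as far below 0, itself included, of which 5 passed. The difference ran from -1.17 without 54h replicate 1, where it passed limma (adjusted p = 0.00762), to -0.87 without 54h replicate B, where it also passed (adjusted p = 0.0483). Without any 1 of the other 4 arrays it did not pass (limma adjusted p from 0.108 to 0.268). It also passed limma with centred arrays (adjusted p = 0.0445), a filter at the 60th percentile (0.0368), robust eBayes (0.0475) and array weights (0.00222). The call thus depends on the setting, while the direction was the same in all 17 alternatives. Of the 6 macrophage markers 3 were lower with an unadjusted limma p under 0.05, 0 passed the adjusted threshold, and Adgre1 (0.01) and C1qa (0.02) were not lower; their part in the Mgst2 difference was not tested.

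The promoter windows of Mgst2, Gsta3 and Mgst1 are shown because these genes were among those lower at 54 h at an unadjusted limma p of 0.05 and hold a motif that was searched. Sequences are RefSeq's for GRCm38.p6, each on the gene's strand from 250 bases before to 50 after the start site; 9 of the 10 genes were matched, in 11 windows, and Gsta4 was not. Capitals mark a match to the antioxidant response element core TGACNNNGC on either strand in Gsta3 and Mgst1, and to the AP-1 motif TGANTCA, which reads the same on both strands, in Mgst2.
Mgst2, chr3:51660929-51661228, plus strand: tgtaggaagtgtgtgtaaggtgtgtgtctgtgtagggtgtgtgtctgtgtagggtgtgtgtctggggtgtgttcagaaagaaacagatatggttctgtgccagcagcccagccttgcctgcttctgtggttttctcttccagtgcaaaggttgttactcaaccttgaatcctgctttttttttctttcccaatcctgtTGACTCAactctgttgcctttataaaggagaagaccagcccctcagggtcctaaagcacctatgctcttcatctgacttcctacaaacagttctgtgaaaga
Gsta3, chr1:21240335-21240634, plus strand: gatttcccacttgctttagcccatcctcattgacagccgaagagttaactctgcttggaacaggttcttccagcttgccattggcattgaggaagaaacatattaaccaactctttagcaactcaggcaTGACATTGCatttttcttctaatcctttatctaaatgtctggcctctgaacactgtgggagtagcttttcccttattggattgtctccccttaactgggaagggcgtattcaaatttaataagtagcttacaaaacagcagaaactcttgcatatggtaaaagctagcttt
Mgst1, chr6:138140277-138140576, plus strand: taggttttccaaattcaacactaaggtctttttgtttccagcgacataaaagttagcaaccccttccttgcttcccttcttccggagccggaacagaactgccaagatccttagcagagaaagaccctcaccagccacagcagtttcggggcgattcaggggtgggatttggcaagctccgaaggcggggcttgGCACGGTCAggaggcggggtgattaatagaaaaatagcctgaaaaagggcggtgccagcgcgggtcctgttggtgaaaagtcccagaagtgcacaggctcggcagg

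The TGACNNNGC match of Gsta3 runs from 121 to 113 bases before the start site and that of Mgst1, on the opposite strand, from 56 to 48 bases before it. These were the 2 of 11 member windows with that core, which 12.4% of all 32851 windows of the same length hold. The TGANTCA match of Mgst2 lies 52 to 46 bases before the start site, and Gstp1 has one 74 to 68 bases before its start. That motif, added after the sequences had been seen, is in 2 of 11 member windows and 7.81% of all windows, and no match overlapped the other motif. With the bases that follow it, the Gstp1 match reads TGAGTCAgc, which differs from TGACNNNGC only in having G for its first C. The search required that C, so a wider form of the core was not counted. A match is a match of letters only, and the second Mgst1 window held neither motif.

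The genes whose values over the arrays were most like those of Mgst2 are given as a description. Likeness was the root mean square difference over 6 arrays between log2 values centred on each probe set's own mean, over 23202 other probe sets that name 1 gene. The 5 nearest were Slit1, an axon guidance ligand (0.179), Masp1, a complement lectin-pathway protease (0.191), Dnmt3l, a DNA methyltransferase cofactor of germ cells (0.193), Sbsn, which encodes suprabasin (0.199), and Tnnt2, the cardiac troponin T (0.211). The median over all was 0.547. Masp1 read 636, 519 and 620 units at 46 h and 292, 219 and 276 at 54 h, and Slit1 498, 510 and 602 against 328, 290 and 300. Since likeness counts the step between times, lower 54 h values in these 5 follow from how they were chosen, and no test of that step is given for them.

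**Figure D3:**
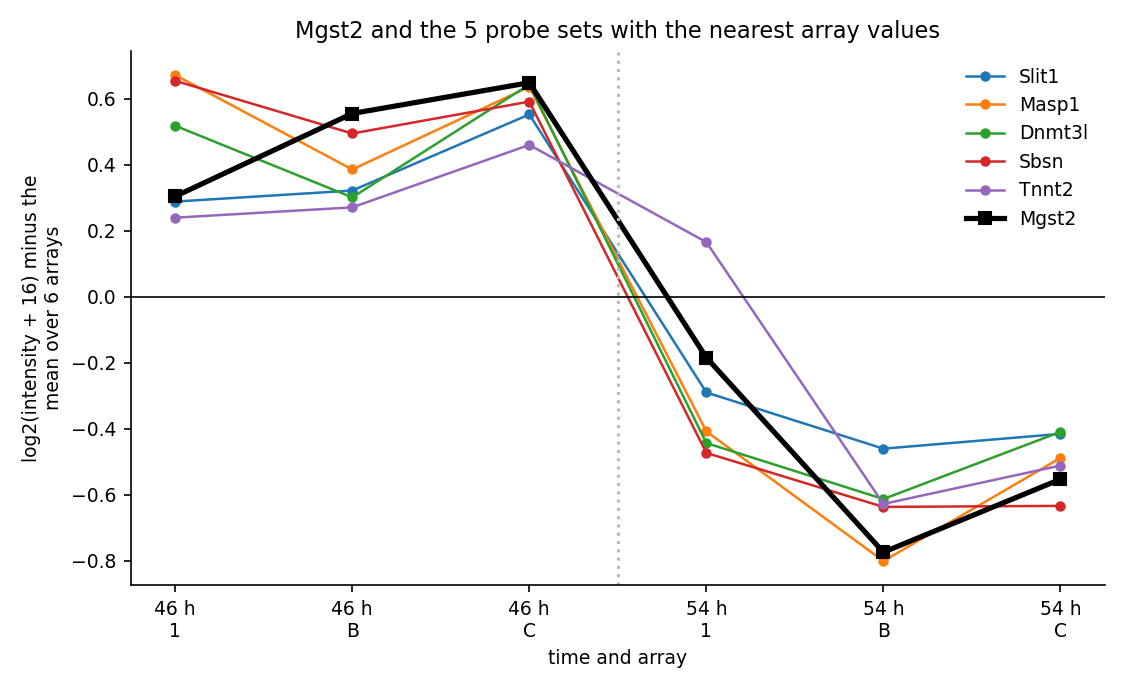
Log2(intensity + 16) minus the mean over 6 arrays, by array, for Mgst2 (black squares) and the 5 probe sets with the nearest values; lines only join the points of 1 probe set. All lie above 0 on the 46 h arrays and below it on 54h replicates B and C, while Tnnt2 lies above 0 on 54h replicate 1, on which it read 158 units.

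Mgst1, the abundant microsomal transferase of the endoplasmic reticulum and outer mitochondrial membrane, read 11916, 11350 and 11969 units at 46 h and 11028, 10848 and 10789 units at 54 h (1415897_a_at). The groups did not overlap. The means of 11745 ± 343 and 10888 ± 125 units (SD, n = 3 each) gave a log2 difference of -0.11 ± 0.03 SE (limma adjusted p = 0.333), a 1.08-fold lower level. The second Mgst1 probe set (1415898_at) read 49.3 to 76.0 units on all arrays and lay under the filter, so it was not tested.

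Mgst3, which acts as a glutathione peroxidase as well as a transferase, had overlapping values. It read 547, 559 and 767 units at 46 h and 608, 711 and 683 at 54 h, so 46h replicate C was the highest of all 6. The log2 difference was 0.11 ± 0.14 SE (limma adjusted p = 0.848). It depended on single arrays, at 0.26 without 46h replicate C and 0.17 without 54h replicate 1, but 0.02 without 46h replicate 1, 0.04 without 46h replicate B and 0.06 without 54h replicate B. The other Mgst3 probe set, at 7.61 to 38.2 units, lay under the filter.

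The alpha class enzymes had differences of opposite sign, neither past the test. Gsta3, an alpha transferase that is abundant in liver, was read by 2 probe sets. The brighter (1423436_at) gave 1063, 922 and 1123 units at 46 h and 995, 720 and 748 at 54 h. On 54h replicates B and C it was below all 46 h arrays, but 54h replicate 1 lay within their range. The log2 difference was -0.34 ± 0.14 SE (95% interval -0.65 to -0.03, limma adjusted p = 0.448). Leaving out 1 array gave -0.48 (54h replicate 1) to -0.26 (54h replicate B), and the mean of both Gsta3 probe sets gave -0.15. The summed level of the liver markers was higher on every 54 h array than on any at 46 h, and their part in the Gsta3 values was not tested.

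The dimmer Gsta3 probe set (1423437_at) did not show the same difference. It read 187, 136 and 174 units at 46 h and 212, 151 and 154 at 54 h (log2 difference 0.05 ± 0.17 SE, limma adjusted p = 0.948), and its sign turned without 46h replicate B, without 54h replicate 1 and with array weights. The log2 distance between both probe sets was 2.41, 2.63 and 2.59 on the 46 h arrays and 2.15, 2.14 and 2.17 on the 54 h arrays, with no overlap. An exact permutation test of that distance, two-sided, gave p = 0.1, the smallest that 3 against 3 arrays allow (0.4 after Benjamini-Hochberg adjustment over the 8 pairs of probe sets compared). Both probe sets had their lowest 46 h value on replicate B and their highest 54 h value on replicate 1.

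Gsta4, which has a high activity toward hydroxynonenal and other products of lipid peroxidation, was the only member whose 54 h arrays all lay above its 46 h arrays. It read 3357, 3406 and 3535 units at 46 h and 4299, 3850 and 3682 units at 54 h. The means were 3432 ± 91.8 and 3944 ± 319 units (SD, n = 3 each), 1.15-fold higher at 54 h (log2 difference 0.20 ± 0.07 SE, 95% interval 0.04 to 0.35, limma adjusted p = 0.369). In the fits that left out 1 array it ran from 0.13 to 0.24 and passed in none of them.

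The mu class enzymes, Gstm1 and Gstm2, are neighbouring genes on chromosome 3 with similar coding sequences, so probe sets may read more than the named gene. Gstm1 had 4 tested probe sets. The brightest pair (1416416_x_at and 1448330_at) share a reference transcript and read almost in parallel: their log2 distance was 0.05, 0.05 and 0.03 on the 46 h arrays and 0.04 on each 54 h array. The brightest of all gave 9833, 9974 and 9841 units at 46 h and 9138, 9648 and 9305 at 54 h. Here the groups did not overlap, yet the difference was only -0.08 ± 0.04 SE (limma adjusted p = 0.503), with -0.07 for its partner.

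The pair designed on the other Gstm1 transcript record read lower. Probe set 1425627_x_at had a difference of -0.03 ± 0.05 SE, and its log2 distance from the bright pair gave exact permutation p-values of 0.5 and 0.6 (two-sided). Probe set 1425626_at gave 2574, 2401 and 2351 units at 46 h and 2790, 2484 and 2741 at 54 h, overlapping values with a difference of 0.13 ± 0.07 SE (limma adjusted p = 0.589). The log2 distance of these 2 was 0.94 to 1.05 at 46 h and 0.81 to 0.88 at 54 h (exact permutation p = 0.1, two-sided, 0.4 after adjustment over 8 pairs). The distance of 1425626_at from the bright pair gave exact permutation p = 0.2 for each. The 4 Gstm1 probe sets thus gave values between -0.08 and 0.13, their mean gave -0.01, and no interval reached a 1.5-fold change.

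Gstm2, which is also a mu transferase, has 1 probe set, which read 8011, 7925 and 8389 units at 46 h and 7456, 7573 and 7267 at 54 h. All 54 h arrays were lower than all 46 h arrays. From 8108 ± 247 to 7432 ± 154 units (SD, n = 3 each) this was a 1.09-fold lower level (log2 difference -0.13 ± 0.04 SE, limma adjusted p = 0.336). Quantile normalization, centring and the other alternatives left its direction as it was.

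**Figure D4:**
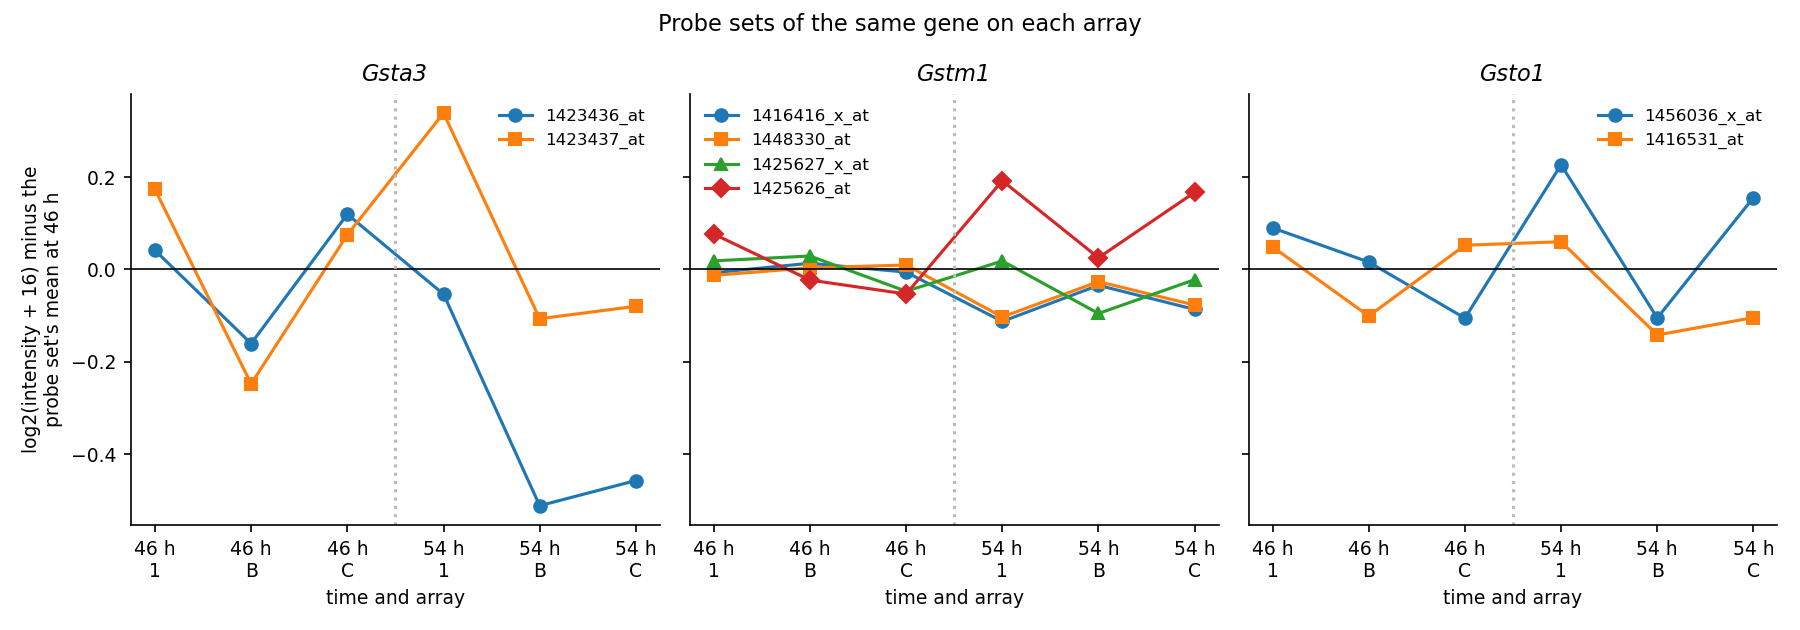
Log2(intensity + 16) minus each probe set's mean at 46 h, by array, for the tested probe sets of Gsta3, Gstm1 and Gsto1; lines only join the points of 1 probe set and the dotted line divides the times. The centring gives the Gsta3 probe sets the same mean at 46 h. On the 54 h arrays they lie apart but run in parallel, and the bright Gstm1 pair is nearly superimposed.

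Gstp1, Gstt1 and Gsto1 represent the pi, theta and omega classes and showed the smallest differences among the brightest probe sets together with Gstm1. Gstp1, an abundant pi enzyme, read 9173, 9123 and 9289 units at 46 h and 9018, 9115 and 8764 at 54 h. The groups did not overlap, by a gap of 9123 to 9115 units, and the difference was -0.04 ± 0.03 SE (limma adjusted p = 0.773). Gstt1, which acts on small halogenated molecules, read 2700, 2683 and 2650 units at 46 h and 2808, 2500 and 2547 at 54 h, so 54h replicate 1 was the highest array and the other 2 the lowest (-0.03 ± 0.07 SE, limma adjusted p = 0.906). Leaving out 1 array gave -0.08 (54h replicate 1) to -0.0018 (54h replicate B). Its coefficient of variation was 0.953% at 46 h and 6.33% at 54 h.

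Gsto1, an omega enzyme with thiol transferase and dehydroascorbate reductase activity, had probe sets of opposite sign, both small. The brighter (1456036_x_at) read 3807, 3616 and 3322 units at 46 h and 4187, 3323 and 3985 at 54 h (0.09 ± 0.09 SE, limma adjusted p = 0.778). That difference was 0.03 without 54h replicate 1, 0.04 without 46h replicate C, 0.06 without 54h replicate C and 0.19 without 54h replicate B, and the mean of both probe sets gave 0.02. The other (1416531_at) read 2623, 2363 and 2629 units at 46 h and 2643, 2296 and 2357 at 54 h (-0.06 ± 0.08 SE, limma adjusted p = 0.841). Both overlapped between times. On 54h replicates 1 and C they lay further apart, at log2 distances of 0.66 and 0.75 against 0.34 to 0.61 at 46 h. On 54h replicate B the distance was 0.53, within the 46 h range.

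Other genes of glutathione metabolism were read from lists of 64 genes, each from its brightest probe set, of which 60 had one and 53 were tested. Of these 53, 0 passed limma over all probe sets, and 2 higher and 4 lower reached an unadjusted p of 0.05, or 11.3%, against 10.1% of all probe sets. Their median difference was -0.02, as over all probe sets. The count at an unadjusted p of 0.05 became 13 (24.5%) on leaving out 54h replicate B, where 13.2% of all probe sets reached it. It fell to 3 (5.66%, against 6.69% of all) on leaving out 46h replicate 1. On leaving out 46h replicate C or 54h replicate C it was 4 (7.55%), against 13.4% and 5.23% of all. Array weights gave 19 (35.8%, against 31.8% of all). A fit that did not tie the variance to intensity gave 3 (5.66%, against 9.19% of all). Over all 83 tested probe sets of these 53 genes, 0 passed limma and 13, or 15.7%, reached an unadjusted p of 0.05, and 7 of the 13 were not the brightest of their gene.

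Among the 13 tested relatives of the transferases 0 passed, 1 was lower at an unadjusted p of 0.05 (5.75% of all probe sets were), and 10 of 13 differences were below 0, against 55.6% of all probe sets. That gene was Gstk1, the kappa transferase of mitochondria and peroxisomes, with 4058, 3973 and 4413 units at 46 h and 3360, 3328 and 3144 at 54 h. The groups did not overlap, and the log2 difference was -0.34 ± 0.06 SE (limma adjusted p = 0.0951). Next came Gstm6 with -0.17, Gstt2 with -0.14 and Gstm4 with -0.10. Alox5ap and Ltc4s, leukotriene synthesis proteins of the same membrane family as Mgst2, had -0.06 ± 0.11 and -0.03 ± 0.12 SE. The Gstm3 probe set varied among replicates, from 3288 to 4889 units at 46 h and 3276 to 4472 at 54 h.

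Genes that make, recycle and break down glutathione showed 0 of 14 past the test and 0 at an unadjusted p of 0.05 when each was read from its brightest probe set. Gclc and Gclm, the catalytic and modifier subunits of the rate-limiting synthesis enzyme, had log2 differences of -0.12 ± 0.09 and -0.03 ± 0.12 SE, and glutathione reductase, Gsr, had -0.04 ± 0.10 SE. The dimmer Gclc probe set read 746, 659 and 859 units at 46 h and 543, 578 and 489 at 54 h, values that did not overlap. Its difference was -0.47 ± 0.12 SE (limma adjusted p = 0.236), under an unadjusted p of 0.05. Those of Gclm and Gsr had 0.08 and -0.15. The smallest p-values belonged to the glyoxalase gene Glo1 (0.13), Ggct (0.22), Dpep1 (0.15) and Slc3a2 (-0.10). The other 3 tested Glo1 probe sets had -0.08, -0.08 and 0.05, and the other of Dpep1 had -0.07. A dimmer probe set of the glyoxalase gene Hagh reached an unadjusted p of 0.05 in limma with 0.18. The cystine transporter gene Slc7a11 was under the filter at 3.32 to 46.3 units. Peroxidases and glutaredoxins had 0 of 8 past the test and 0 at an unadjusted p of 0.05, with Glrx5 at -0.12, Gpx4, which reduces phospholipid hydroperoxides, at -0.10, Gpx3 at 0.12, Glrx2 at 0.10 and Gpx1 at -0.03, and all 8 intervals lay within a 1.5-fold change. Another Gpx4 probe set had -0.18 with an unadjusted limma p of 0.0216 (adjusted 0.401).

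Of 18 genes of the NRF2 system, NADPH supply and conjugate export, 0 passed and 5 reached an unadjusted p of 0.05, 2 higher and 3 lower (10.1% of all probe sets did, 4.34% higher and 5.75% lower). Srxn1, which repairs peroxiredoxins, read 3893, 2918 and 3707 units at 46 h and 4404, 5860 and 5060 at 54 h, a log2 difference of 0.54 ± 0.12 SE (limma adjusted p = 0.176). Its other 3 tested probe sets had 0.81 (limma adjusted p = 0.0922, no overlap), 0.76 and 0.03. Taldo1, of the pentose phosphate pathway, had -0.23 ± 0.05 SE (limma adjusted p = 0.176), and Pgd of the same pathway had 0.15 ± 0.05 SE, with 0.20, 0.17 and 0.0035 for its other probe sets. The small MAF gene Mafg had -0.54 ± 0.22 SE, with overlapping values, and its other probe set had -0.09 (limma adjusted p = 0.845). Nfe2l2, which encodes NRF2, had -0.02 ± 0.05 SE and its partner in degradation, Keap1, -0.17 ± 0.07 SE, against 0.10 for the dimmer Keap1 probe set. Nqo1, a standard NRF2 target, had 0.16 ± 0.13 SE and read 138 to 168 units at 46 h and 169 to 183 at 54 h. Hmox1, of the same list, went the other way with -0.25 ± 0.12 SE and overlapping values (limma adjusted p = 0.531). In this list 10 differences were above 0 and 8 below.

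**Figure D5:**
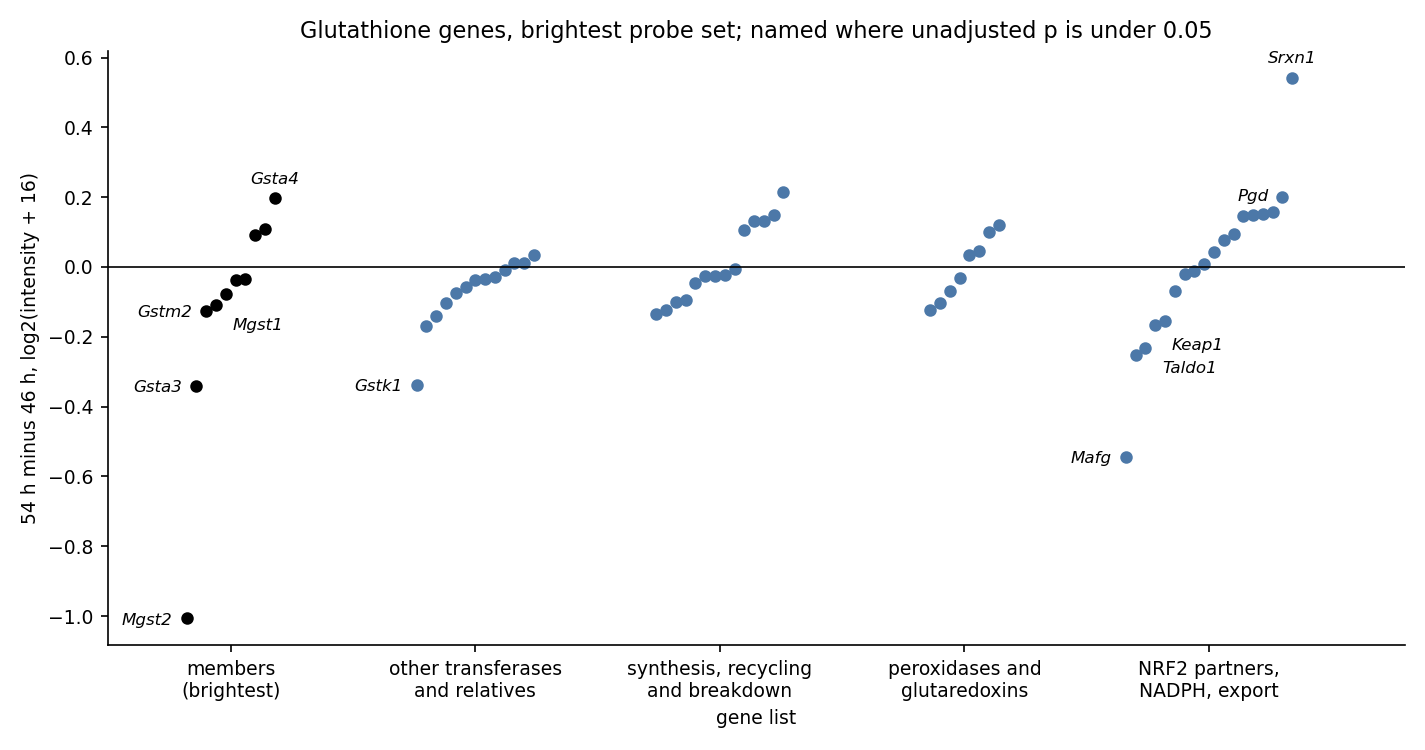
Log2 difference between 54 h and 46 h for each tested gene, read from its brightest probe set, in the 10 glutathione transferases (black) and the 4 lists of other glutathione genes (blue); genes are in order of their difference within a list and named where the unadjusted limma p is under 0.05. Mgst2, at -1.01, is the lowest point, and no list has a gene past the adjusted threshold.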

How the data were processed

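For biotin-labelled RNA the authors deposited a linear-scale intensity for each probe set on each array; summarization, background correction and normalization are not given in the sources used here. Array medians differed by 0.0911 on the log2 scale, under the limit of 0.1 set for using values unchanged. From 45001 probe sets, 64 controls, 1 without values and 1 with a damaged value were left out. The platform annotation named 1 gene for 34848, several for 928 and none for 9159; lookup in RefSeq (GRCm38.p6) changed 0 symbols.

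Values were transformed as log2(intensity + 16), filtered at the 40th percentile of the mean, and compared between times with limma 3.58.1, R 4.3.3 (lmFit; eBayes with trend; two-sided, Benjamini-Hochberg over all probe sets, threshold 0.05), tested on simulated data. Python 3.11.15 and matplotlib 3.10.9 made tables and plots. Named were all members, from each other list up to 4 genes with the smallest p and 2 well-known ones (any other named gene was chosen after its values were seen), and the 5 nearest patterns. Members, lists and alternatives were chosen with earlier results of these data known. Alternatives covered normalization, filter, offset, variance model, array weights, replicate block, leaving out each array, and the mean of a gene's probe sets.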

Additional observations from a re-analysis of the deposited data

How the results depend on the processing

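In 16 alternatives on the brightest probe set of each of the 10 genes, and in the mean of a gene's probe sets, no gene changed direction. That mean moved Gsta3 from -0.34 to -0.15, Gstm1 from -0.08 to -0.01 and Gsto1 from 0.09 to 0.02. Gstp1, at -0.04, was -0.02 without 54h replicate C or with centred arrays. Mgst2 ranged from -1.17 to -0.87 and passed limma in 7 of 17, the replicate block included (adjusted p = 0.0427). Gsta3, Gstm2 and Mgst1 passed only with array weights (limma adjusted p 0.0207, 0.0209 and 0.0147). The number of member probe sets past limma, 0 as reported, was 1 with centred arrays, the 60th percentile filter, robust eBayes and the replicate block, 4 with array weights, and 0 to 1 when single arrays were left out. The number of other glutathione genes past limma, 0 as reported, was 5 with array weights. Over all probe sets, 31 passed as reported, 47 with quantile normalization, 48 with the 60th percentile filter, 3 without a trend, 61 with robust eBayes, 3466 with array weights, and 2 to 66 when single arrays were left out; the causes were not tested. The labels do not state whether the replicate names pair the samples. Deviations from group means of same-named arrays correlated at -0.06 (the unlettered arrays, named 1 here), -0.41 (B) and -0.49 (C). No array correlated best with its namesake. The highest values were 0.46 for 46h replicate B with 54h replicate C and 0.38 for 46h replicate C with 54h replicate B. Deviations cancel out within a group, so these correlations depend on each other and cannot decide whether the names pair the samples. The fit with the block gave 45 probe sets. The precision is limited by 3 arrays a group.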
